A study of Sus scrofa with 36 samples.

Results

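Complement is a cascade of blood and tissue proteins that marks cells, debris and synapses for uptake. Here 9 of its genes were followed in the cerebellum of young pigs: the 3 chains of C1q (C1QA, C1QB, C1QC), the C1 proteases C1R and C1S, the central component C3, the receptors C3AR1 and C5AR1, and the C1 inhibitor SERPING1. They were chosen by name and looked up among 31907 Ensembl pig gene identifiers. The identifiers that the symbol table gives for C1R, C1S and C5AR1 do not match any row, so these 3 genes were not analysed here, and 6 of the 9 have values.

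In the classical pathway, C1q recognises a surface, C1r and C1s cut the next components, and C3 is cleaved so that fragments of it stay on the target. The released C3a is sensed by the receptor C3aR, and C1 inhibitor blocks C1r and C1s. In brain tissue microglia are the best known source of C1q, and tagging by C1q and C3 takes part in the removal of synapses during development.

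RNA of the cerebellum was sequenced from 36 term-born crossbred pigs (Danish landrace, Yorkshire and Duroc) of both sexes. They had a normal birth weight (NBW) or spontaneous intrauterine growth restriction (IUGR), and from 3 days of age received for 3 weeks a formula whose fat came from vegetable oils (VEG) or from bovine milk fat (MILK). Each of the 4 groups (VEG-NBW, MILK-NBW, VEG-IUGR and MILK-IUGR) held 9 piglets, 1 library each. The comparison asks whether the fat source, the birth weight or their combination went with a different level of these genes. No group was fed by the sow, and the litters from which the piglets came are not in the labels.

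The share of read pairs assigned to no gene stood apart in 3 libraries, of piglets 202 (VEG-NBW, 43.6%), 210 (VEG-IUGR, 64.3%) and 213 (MILK-NBW, 31.5%), against 26.7% to 30.5% in the other 33. All results below use those 33 libraries, with 15516541 to 23027502 counts on genes each, unless all 36 are named. Piglet 210 held 0 counts of C1QA and of C3AR1 but 481 of C1QB and 286 of C1QC. A count of 0 among its 7936202 counts allows up to 0.378 CPM (counts scaled by the library total), and only 6513 genes were detected in it. The tissue label was checked against markers: in the 33 libraries the granule neuron gene GABRA6 had a median of 307 CPM, the Purkinje cell genes CALB1 and PCP2 503 and 414 CPM, and the microglial gene CSF1R 48.3 CPM. The neutrophil gene MPO was at 0 in 28 piglets and S100A8 had a median of 0.408 CPM.

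All 6 genes passed the filter on low counts. Levels are given as normalised counts, which are counts divided by the size factor of the library. They were not corrected for transcript length, so they are compared between piglets and not between genes.

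The 3 C1q chains come from neighbouring genes. In the RefSeq annotation of Sscrofa11.1, C1QA (chromosome 6, 80586259 to 80589213), C1QC (80592591 to 80597464) and C1QB (80601680 to 80606076) lie within 19818 bases. They form one hexameric molecule with the same number of each chain. C1QA had a mean of 376 ± 118 (SD, n = 8) in VEG-NBW, 410.4 ± 67.1 (n = 8) in MILK-NBW, 372 ± 66.7 (n = 8) in VEG-IUGR and 377 ± 97.1 (n = 9) in MILK-IUGR. Its lowest, median and highest values were 252, 349.6 and 588 in VEG-NBW, 319, 394 and 506 in MILK-NBW, 239, 391 and 429 in VEG-IUGR, and 181, 393 and 537 in MILK-IUGR. The 4 groups overlapped, and the lowest and the highest value of all 33 piglets lay in MILK-IUGR and VEG-NBW.

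C1QB ran from 336 through a median of 496 to 954 in VEG-NBW and from 469 through 608 to 715 in MILK-NBW. In IUGR piglets it ran from 382 through 560.0 to 740.3 on VEG and from 258 through 609 to 795 on MILK. For C1QC the lowest, median and highest values were 321, 438 and 768 in VEG-NBW, 452, 529.99 and 620.4 in MILK-NBW, 309, 492 and 635 in VEG-IUGR, and 244.5, 505 and 771 in MILK-IUGR. Both chains overlapped among all groups, as C1QA did. The spread between piglets, given as the SD in percent of the mean, was at most 16.3% for the 3 chains in MILK-NBW and 30.4% to 40.7% in VEG-NBW; the difference in spread was not tested.

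C3, the component on which all complement pathways meet, is on chromosome 2 (72431470 to 72471622). Its mean was 957 ± 364 in VEG-NBW, 969 ± 198 in MILK-NBW, 876 ± 188 in VEG-IUGR and 943 ± 297 in MILK-IUGR. The lowest, median and highest values were 636, 805 and 1707 in VEG-NBW, 752, 956 and 1340.1 in MILK-NBW, 592, 889 and 1130.5 in VEG-IUGR, and 444, 1056 and 1461 in MILK-IUGR. The 4 groups overlapped, and the highest piglet was 3.84 times the lowest.

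C3AR1, the C3a receptor (chromosome 5, 63088778 to 63098750), had the fewest counts of the 6, and its values are the least precise. The lowest, median and highest values were 36.9, 39.9 and 74.3 in VEG-NBW, 25.7, 44.6 and 95.7 in MILK-NBW, 12.6, 44.8 and 74.7 in VEG-IUGR, and 21.0, 62.9 and 87.4 in MILK-IUGR. MILK-IUGR had the highest median of the 4 groups, and all groups overlapped.

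SERPING1 encodes the serpin that inactivates C1r and C1s (chromosome 2, 13324160 to 13338826). Its mean fell in a narrow band, 946 ± 183 in VEG-NBW, 888 ± 125 in MILK-NBW, 833 ± 132 in VEG-IUGR and 829 ± 97.6 in MILK-IUGR. Its lowest, median and highest values were 815, 908 and 1372 in VEG-NBW, 709.9, 889 and 1072 in MILK-NBW, 668, 814 and 1064.5 in VEG-IUGR, and 663, 829.7 and 949 in MILK-IUGR. Its SD over all 33 piglets was 15.9% of the mean, against 22.7% to 37.2% for the other 5 genes.

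**Figure D1:**
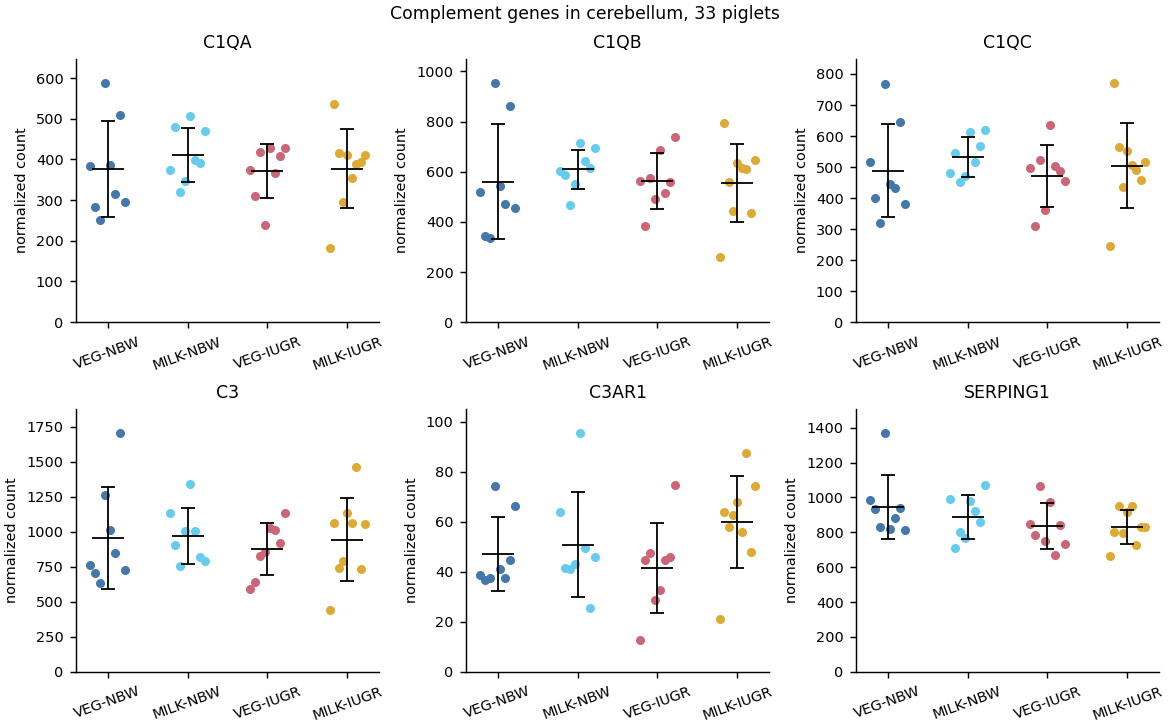
Normalised count (vertical axis, from 0) of the 6 complement genes in each of 33 piglets (points) by group, with the mean and SD in black. All 4 groups overlap for every gene; piglet 216 of VEG-NBW is the high SERPING1 point at 1372, and piglet 206 of MILK-IUGR is the lowest MILK-IUGR point in all 6 panels.

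Diet did not pass the test for any of the 6. With edgeR's quasi-likelihood test and Benjamini-Hochberg adjustment over 15356 genes, 0 of 6 members and 0% of all genes were called for MILK against VEG, and 0 of 6 members had an unadjusted p under 0.05, against 4.26% of all genes. The median log2 fold change of the members was 0.07, with 5 of 6 higher on MILK. C3AR1 was 0.33 higher (SE 0.19, 95% interval -0.05 to 0.71, adjusted p = 0.985), and a permutation test of its log2 CPM gave p = 0.101. The intervals of the C1q chains and C3 allowed levels on MILK of 0.86 to 1.27 times those on VEG. For SERPING1 the difference was -0.05 (SE 0.067, interval -0.19 to 0.09).

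Birth weight gave the same count of calls. For IUGR against NBW, 0 of 6 members were called (0% of all genes), and 0 of 6 had an unadjusted p under 0.05 (2.19% of all genes). The members' median log2 fold change was -0.06, with 5 of 6 lower in IUGR. SERPING1 had the change with the smallest p, at -0.13 (SE 0.067, interval -0.26 to 0.01, adjusted p = 0.99957, permutation p = 0.0682). The C1q chains differed by -0.07, -0.06 and -0.06 for C1QA, C1QB and C1QC, and C3 by -0.09. With all 36 libraries the differences of C1QB and C1QC were 0.078 and 0.054, in the opposite direction, and neither was called.

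The interaction, which asks whether the diet difference was another in IUGR than in NBW piglets, was not called for any member (0 of 6, and 0% of all genes; at unadjusted p under 0.05, 0 of 6 against 6.09% of all genes). C3AR1 had the widest value, 0.42 (SE 0.37, interval -0.35 to 1.18, adjusted p = 0.838). The other 5 lay between -0.13 and 0.11, with intervals that reached from -0.67 to 0.63.

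**Figure D2:**
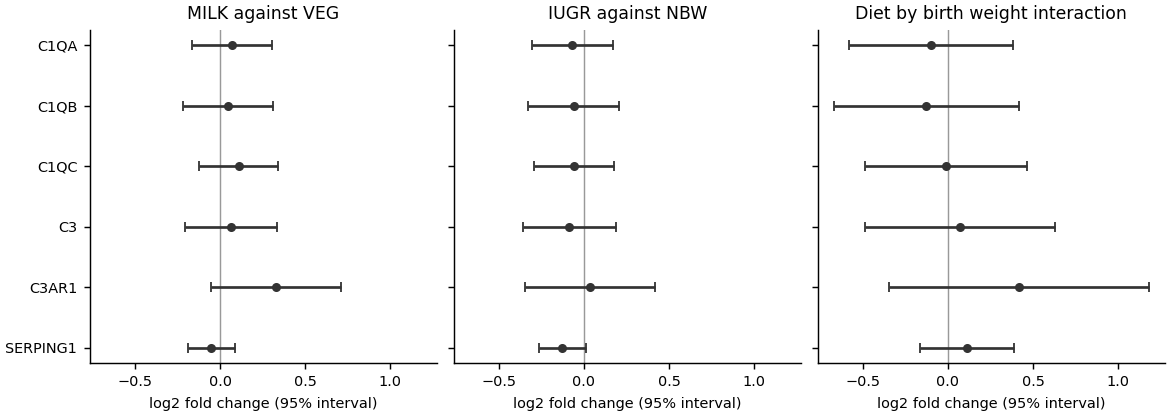
Log2 fold change (horizontal axis) of the 6 genes for diet, birth weight and their interaction, with 95% intervals (bars). All 18 intervals cross 0, and C3AR1 has the widest, from -0.35 to 1.18 for the interaction.

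Between single groups, 0 of 6 members were called in each of the 4 contrasts, as were 0% of all genes. For MILK-NBW against VEG-NBW, 0 of 6 had an unadjusted p under 0.05 (6.67% of all genes), for VEG-IUGR against VEG-NBW 0 of 6 (2.29%) and for MILK-IUGR against MILK-NBW 0 of 6 (6.24%). For MILK-IUGR against VEG-IUGR it was 1 of 6 (3.9% of all genes), C3AR1. That gene was 0.53 higher on MILK on the log2 scale (SE 0.26, adjusted p = 0.996), higher in 80.6% of the pairs of piglets from both groups, and an exact two-sided permutation test gave p = 0.0897. In the same contrast the summed level of 12 microglial markers ran from 114 through a median of 213 to 238 CPM in MILK-IUGR. In VEG-IUGR it ran from 144 through 187 to 227 CPM. The median of this level was thus higher in MILK-IUGR, as that of C3AR1 was, and its part in the C3AR1 values was not tested.

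Sex was a stratum of the randomisation. For males against females 0 of 6 members were called, against 0.163% of all genes, and 1 of 6, SERPING1, had an unadjusted p under 0.05, against 2.94% of all genes. SERPING1 ran from 663 through a median of 808 to 993 in 16 females and from 733 through 915 to 1372 in 17 males. It was 0.17 higher in males on the log2 scale (SE 0.068, adjusted p = 0.99967), and 0.060 higher with all 36 libraries (SE 0.108, adjusted p = 0.9997). A permutation test of its log2 CPM gave p = 0.0207, p = 0.0372 without piglet 216, a VEG-NBW male, and p = 0.455 with all 36 libraries. The sexes overlapped, and males had the higher mean in all 4 groups.

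While the groups did not separate, piglets of the same group did, and the genes moved together. Piglet 216 of VEG-NBW was among the 5 highest of 33 for all 6 genes, and piglet 206 of MILK-IUGR was the lowest for C1QA, C1QB, C1QC, C3 and SERPING1 and the second lowest for C3AR1. In tissue RNA, fewer cells of a type and less RNA per cell cannot be told apart, so a piglet with low C1q may have either.

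To compare piglets within groups, log2 CPM values were taken after the means of group and sex were removed. The 15 pairs of members all had a positive Pearson r, from 0.30 to 0.92 with a median of 0.61. Of these, 13 of 15 had an unadjusted permutation p under 0.05. With the genes at both extremes left out, r of all 15355 other genes tested with C1QA ran from -0.61 to 0.60. For C3 this central range was -0.46 to 0.55, for C3AR1 -0.39 to 0.46 and for SERPING1 -0.47 to 0.50. Pairs among the C1q chains and C3, and C3 with C3AR1, exceeded the ranges of both genes. C1QC with C3AR1, and SERPING1 with C3 and C3AR1, lay inside both. The other pairs exceeded the range of C3AR1 or SERPING1 only. The values share library and depth within a piglet. P-values were adjusted over a family of 597 pairs of a member with a member or listed gene.

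The C1q chains moved closely together. For C1QA and C1QC, r was 0.92 and Spearman's rho 0.88 (permutation p = 1e-05 for both, the smallest that 100000 permutations can give, adjusted p = 0.000166 and 0.00026). Without the 2 piglets farthest from the median of C1QA, the first gene of the pair, r was 0.88. For C1QA and C1QB, r was 0.90 and rho 0.86 (permutation p = 1e-05 for both), and 0.84 without the 2 farthest piglets. For C1QB and C1QC, r was 0.91 and rho 0.83 (permutation p = 1e-05 for both), and 0.85 without them. Within the 4 groups the 3 pairs ran from r = 0.64 to 0.98. Over all 15355 other genes tested, C1QC ranked 1 and C1QB ranked 2 in likeness to C1QA. The other members ranked lower, C3 at 99, SERPING1 at 674 and C3AR1 at 1011.

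The ratio of chains varied little between group means and more between piglets. Counts of C1QA per count of C1QB were 0.681 ± 0.083 (n = 33), with group means from 0.668 to 0.693 and piglets from 0.488 to 0.906. Counts of C1QC per count of C1QB were 0.887 ± 0.105, with group means from 0.842 to 0.918 and piglets from 0.613 to 1.17. Of the libraries that stand apart, C1QA per C1QB was 0.405 in piglet 202 and 0 in piglet 210, both below the lowest of the 33 libraries (0.488), while piglet 213 with 0.66 lay within their range.

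**Figure D3:**
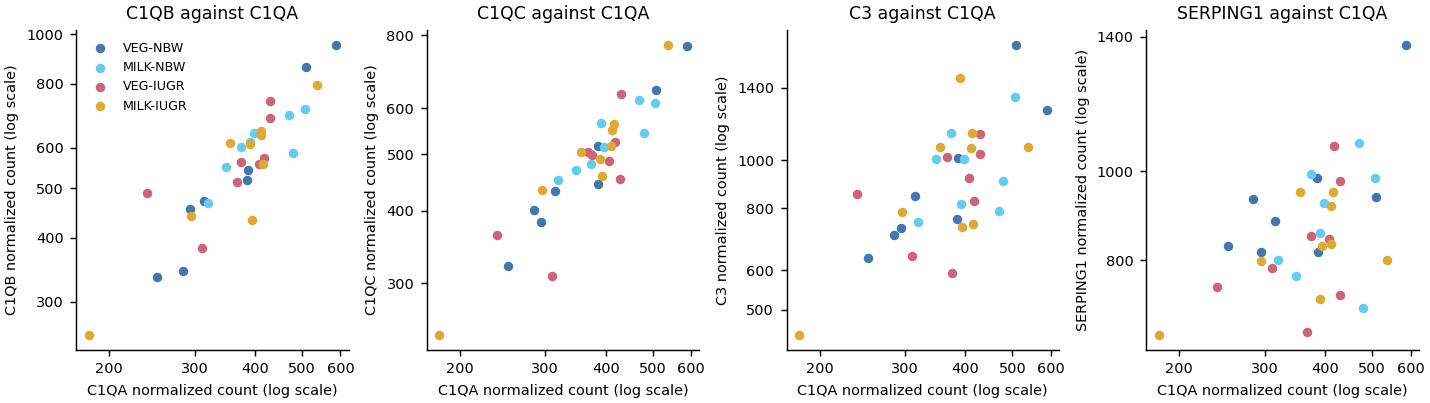
Normalised counts of C1QB, C1QC, C3 and SERPING1 (vertical axes, log scale) against C1QA (horizontal axis, log scale) in 33 piglets coloured by group. C1QB and C1QC follow C1QA from the lowest piglet (181) to the highest (588), and C3 and SERPING1 had r with C1QA of 0.70 and 0.55 after group and sex were removed.

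C3 also moved with the C1q chains. For C1QB and C3, r was 0.83 and rho 0.83 (permutation p = 1e-05 for both), and 0.77 without the 2 farthest piglets. For C1QA and C3, r was 0.70 and rho 0.63 (permutation p = 1e-05 and 0.00017), and 0.57 without the 2 farthest. Within groups the r of C1QA and C3 was 0.89 in VEG-NBW, 0.40 in MILK-NBW, 0.43 in VEG-IUGR and 0.72 in MILK-IUGR, positive in all 4 with 8 or 9 piglets each.

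Among the members, the receptor C3AR1 had its highest r with C3, from which its ligand is cut. For C3 and C3AR1, r was 0.66 and rho 0.60 (permutation p = 5e-05 and 0.00029), and 0.65 without the 2 farthest piglets. With the C1q chains the r of C3AR1 was 0.50 for C1QA, 0.50 for C1QB and 0.36 for C1QC. These fell to 0.34, 0.29 and 0.14 without the 2 piglets farthest in the C1q chain, of which piglet 206 was always one, so they rest in part on those piglets. C1QC and C3AR1 had an adjusted permutation p of 0.0953.

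SERPING1 had r of 0.55 with C1QA, 0.55 with C1QB and 0.61 with C1QC (rho 0.51, 0.54 and 0.62, adjusted permutation p of r = 0.00516, 0.00516 and 0.00153). Without the 2 piglets farthest in the C1q chain, of which piglet 206 was always one, r was 0.46, 0.40 and 0.54. Piglet 216, which had the highest SERPING1 value, was left out for C1QB but stayed in for C1QA and C1QC. In VEG-IUGR alone r was 0.22, -0.04 and 0.29. With C3 and C3AR1 its r was 0.31 and 0.30 (permutation p = 0.0829 and 0.0933).

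**Figure D4:**
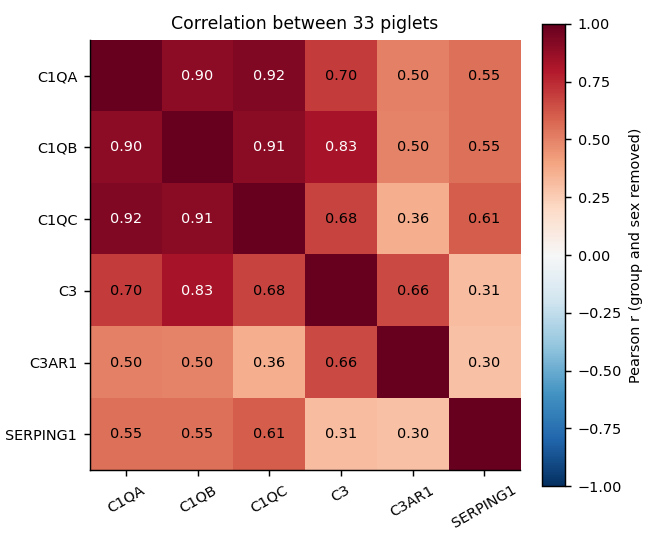
Pearson r between piglets (colour, from -1 to 1, and number in each cell) for each pair of the 6 genes, on log2 CPM of 33 piglets with group and sex removed. The 3 C1q chains form the darkest block at 0.90 to 0.92, and SERPING1 with C3 and C3AR1 has the lowest values, 0.31 and 0.30.

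A fit over all genes gave a background for this. The slope of each gene on the log2 CPM of C1QA, with group and sex in the model, was called positive for 5 of 5 other members, against 8.4% of all genes. Per SD of C1QA the log2 slope was 0.36 (SE 0.033, adjusted p = 2.06e-08) for C1QB, 0.32 (SE 0.026, adjusted p = 1.22e-09) for C1QC, 0.29 (SE 0.053, adjusted p = 0.000688) for C3, 0.28 (SE 0.091, adjusted p = 0.0332) for C3AR1 and 0.11 (SE 0.030, adjusted p = 0.0122) for SERPING1. On C3, 4 of 5 members were called, against 2.77% of all genes. These were C1QB (0.32, adjusted p = 5.84e-06), C1QA (0.24, adjusted p = 0.00234), C1QC (0.23, adjusted p = 0.0049) and C3AR1 (0.35, adjusted p = 0.00968). SERPING1 had a slope of 0.06 (SE 0.034, adjusted p = 0.356).

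The share of unassigned read pairs, a measure of the library, moved with C1q. Its r was -0.45 with C1QA, -0.48 with C1QB and -0.47 with C1QC (adjusted permutation p = 0.0499 for each, over 18 pairs) and -0.43 with SERPING1 (adjusted permutation p = 0.0592). Without the 2 piglets farthest in that share these were -0.26, -0.26, -0.26 and -0.20. C3 and C3AR1 had r of -0.11 and -0.06. With the share in the model, the positive calls on C1QA fell to 3 of 5 members and 1.54% of all genes. SERPING1 (slope 0.089, SE 0.034, adjusted p = 0.144) and C3AR1 (slope 0.33, SE 0.10, adjusted p = 0.0749) were no longer called, with slopes of 0.11 and 0.28 without the share. With it removed, the median r of the 15 pairs was 0.54, and all 15 were positive. With all 36 libraries the pairs ran from -0.61 to 0.91 with 11 of 15 positive, with piglet 210 at 0 counts of C1QA. Positive calls on C1QA were then 2 of 5 members against 66.7% of all genes, and SERPING1 was called negative (slope -0.17, adjusted p = 0.000112), as were 15.1% of all genes. Positive calls on C3 were 2 of 5 against 3.26% of all genes, and negative calls were 0 of 5 against 8.51%.

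The microglial markers varied between piglets with the members. Of 13 listed markers 12 were in the files and passed the filter, and their summed level ran from 114 to 274 CPM. The median r with these 12 was 0.72 for C1QA, 0.72 for C1QB, 0.67 for C1QC, 0.69 for C3, 0.57 for C3AR1 and 0.25 for SERPING1. With CSF1R, the receptor on which microglia depend for survival, r was 0.78 for C1QA and 0.78 for C3 (permutation p = 1e-05 for both). Without the share of unassigned read pairs in the model, 9 of the 12 were called positive on C1QA (8.4% of all genes) and 9 on C3 (2.77%). Border macrophage markers (5 genes) had medians from 0.25 to 0.38 for the C1q chains, C3 and C3AR1. For SERPING1 their median was 0.47, the highest of the members, with single markers from 0.25 to 0.71.

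When the mean log2 level of the 12 markers was removed as well, a setting chosen after seeing the data, the pairs of members parted. The C1q chains had r of 0.66 to 0.81 with each other (permutation p = 1e-05 for each), and SERPING1 had 0.56 to 0.62 with them. For C1QA and C3 r was -0.09 and for C1QB and C3 0.29 (permutation p = 0.618 and 0.099). C3 and C3AR1 had 0.16 (permutation p = 0.359), and C3AR1 with the C1q chains ran from -0.33 to -0.13. The median over all 15 pairs was 0.16.

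SERPING1 was placed near other genes. Its median r with 5 meningeal fibroblast markers was 0.64, against 0.13 to 0.17 for the C1q chains and -0.07 for C3. With the collagen gene COL3A1 and the matrix proteoglycan gene DCN its r was 0.64 for both (permutation p = 6e-05 and 7e-05), and 0.61 for both without the 2 farthest piglets. The summed level of the 5 markers ran from 349 to 1142 CPM. The whole list was detected in all groups, and its part in the SERPING1 values was not tested.

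Granule neuron, myelin and astrocyte markers also varied with C1q, but their median r with C1QA lay within the central range of all genes. With the genes at both extremes left out, r of all 15355 other genes tested with C1QA ran from -0.61 to 0.60. With C1QB this range was -0.60 to 0.64, and the granule neuron median lay below it. Granule neuron markers (6 genes) had a median r of -0.54 with C1QA, -0.63 with C1QB, -0.53 with C1QC and -0.41 with C3. Of these 6, 4 were called negative on C1QA (7.81% of all genes). Purkinje cell markers (5 genes) did not share this, with 0.18, 0.07, 0.18 and -0.24 in the same order. Of these 5, 1 was called positive on C1QA and 0 negative. Oligodendrocyte markers (5 genes) had 0.42, 0.57, 0.42 and 0.54, and 4 of 5 were called positive on C1QA (8.4% of all genes). Astrocyte and Bergmann glia markers (6 genes) had 0.47, 0.46, 0.50 and 0.23, and 3 of 6 were called positive on C1QA. These calls were made without the share of unassigned read pairs in the model. With it, 1.54% of all genes were called positive on C1QA and 1.39% negative. The calls of these lists with it are not given here. The part of these lists in the C1q values was not tested.

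**Figure D5:**
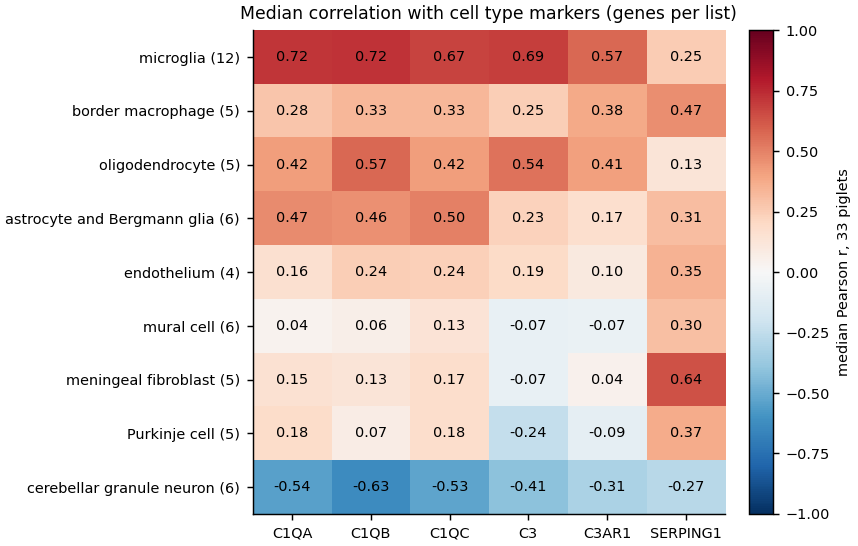
Median Pearson r (colour, from -1 to 1, and number in each cell) of each of the 6 genes with the markers of 9 cell types, over 33 piglets with group and sex removed, with the number of markers in brackets. C1q and C3 are highest with microglia (0.67 to 0.72), SERPING1 with meningeal fibroblasts (0.64), and all 6 are negative with granule neurons.

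The genes most like C1QA, other than members, were HCLS1 (r = 0.82), a signalling protein of blood-derived cells, HADHB (0.82), a mitochondrial fatty acid oxidation enzyme, AIF1 (0.82), the microglial protein Iba1, ADIRF (0.81) and LAPTM4A (0.80), a lysosomal membrane protein. Among the 5 most like C3 were OTULINL (0.89), the microglial lipid receptor TREM2 (0.89), ITGB2 (0.88), the shared beta chain of complement receptors 3 and 4, and a gene without a symbol, ENSSSCG00000033041 (0.88). The r is over 33 piglets and 15355 genes. In place of C1S the same was done for SERPING1, chosen after its values were seen: VIM (0.81), an intermediate filament of glia and fibroblasts, PRDX6 (0.78), IGFBP2 (0.76), RARRES2 (0.76), which encodes chemerin, and FCGRT (0.74).

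Of the other complement genes listed, 25 passed the filter: 10 of 15 for recognition and activation, 2 of 6 terminal components, 7 of 18 regulators and 6 of 9 receptors. For diet, birth weight and their interaction 0 of 25 were called, and 1, 0 and 0 had an unadjusted p under 0.05, against 4.26%, 2.19% and 6.09% of all genes. The count for diet is near that background. The smallest p-values belonged to CD93, a receptor of endothelium and myeloid cells, which was 0.29 higher on MILK (SE 0.091, adjusted p = 0.985), and to CFI and MASP2, with interactions of 0.46 and 0.52 (adjusted p = 0.784 for both). CFI is the protease that inactivates C3b, and MASP2 starts the lectin pathway. Of 9 C1q-like genes, which encode synaptic organisers and related secreted proteins, all passed the filter and 0 were called. Among them C1QL3 was 0.47 higher in IUGR (SE 0.18, adjusted p = 0.99957) and C1QL4 had an interaction of -1.32 (SE 0.53, adjusted p = 0.784).

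Between piglets, without the share of unassigned read pairs in the model, 5 of the 25 were called positive on C1QA and 2 negative. Of all genes 8.4% and 7.81% were, so the negative count is near the background. ITGB2 (0.30 per SD, adjusted p = 0.000217) and ITGAM (0.18, adjusted p = 0.00588), the chains of complement receptor 3, and VSIG4 (0.35, adjusted p = 0.000178), a C3b receptor of macrophages, were called positive. CLU (0.15, adjusted p = 0.00218), the inhibitor clusterin, and C1QBP (0.06, adjusted p = 0.0322) were also called positive. The alternative pathway activator CFP (-0.09, adjusted p = 0.01) and the regulator CSMD1 (-0.13, adjusted p = 0.019) were the negative ones. With C3 the 3 of 25 called positive, against 2.77% of all genes, were ITGB2, ITGAM and VSIG4. The classical component C4A and the terminal component C7 had r of 0.59 and 0.67 with SERPING1 (adjusted permutation p = 0.00132 and 0.000351), and 0.15 and 0.41 with C1QA. The difference between these r values was not tested. C4A was not the highest of the 10 recognition and activation genes, of which another had r of 0.672 with SERPING1.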

How the data were processed

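Cerebellar RNA of 36 piglets was analysed, 1 library each. For each piglet the authors deposited raw read pair counts per Ensembl pig gene; the submitters' notes name Trim Galore, HISAT2, HTSeq and DESeq2 and the build Sscrofa11.1. Which annotation release and strand option were used is not given in the sources used here. Whether reads of overlapping genes on opposite strands were told apart is therefore not known. Groups and sexes came from the labels. Of 31907 identifiers, 15029 were matched to a symbol. Coordinates are those of RefSeq.

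The study left out 1 library each of VEG-NBW, VEG-IUGR and MILK-NBW for low RNA integrity without naming them. Here piglets 202, 210 and 213 were left out, whose share of unassigned read pairs stood apart from the other 8 of the group (Dixon's ratio of 0.786, 0.946 and 0.508, critical value 0.493); whether they are the same 3 is not known. The 33 libraries held a median of 18025540 counts on genes.

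The main test was the quasi-likelihood F test of edgeR 4.0.16 in R 4.3.3, after TMM scaling and filterByExpr (minimum count of 10). An additive model with sex gave diet and birth weight, and the interaction, 4 contrasts and sex came from a model of 4 group means. Calls were made at a Benjamini-Hochberg adjusted p under 0.05 over all genes. The SE is the log2 fold change over the root of F, and the 95% intervals use a t distribution with the residual degrees of freedom. Single genes were tested by permutation of log2 CPM (prior count of 2), exactly between single groups and with 100000 draws otherwise (scipy 1.17.1). Correlations used residuals of group and sex, which were permuted 100000 times. The 2 farthest piglets of a pair were picked by 1 gene only. This was the first in the order C1QA, C1QB, C1QC, C3, C3AR1, SERPING1, or the member against a listed gene. Alternatives were DESeq2 1.42.0, its size factors, limma 3.58.1 voom with quality weights, all 36 libraries, no filter, no sex term and each piglet left out.

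The tests were tested on simulated data. All 6 members with an identifier are named, with up to 5 other complement or C1q-like genes of smallest p, and the 5 genes most like C1QA and C3, of which 1 is not reported here. Complement genes named for their association, and C4A and C7, were chosen after their values were seen. Members and lists were chosen with earlier results of these data known. Each piglet is 1 animal, but litter was not modelled.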

Additional observations from a re-analysis of the deposited data

Results flagged for a closer look

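SERPING1 in piglet 216 of VEG-NBW stood apart from the other 7 piglets of its group, with a normalised count of 1372 against 983 in the next. The gap was 0.699 of the range of the group, above Dixon's critical value for 8 samples. This was 1 of 24 combinations of a gene and a group, and chance flags about 1 in 20. The same piglet was the highest of 33 for C1QA and C1QB.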

How the results depend on the processing

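The count of members called was 0 of 6 for diet, birth weight, the interaction, the 4 contrasts and sex under every alternative run for each, DESeq2 and voom included. With each piglet left out in turn it was 0 for diet, birth weight and the interaction. With all 36 libraries, differences turned for C1QB (0.078) and C1QC (0.054) for birth weight and for C1QA (0.028) and SERPING1 (-0.073) for the interaction. The interaction of C3 turned to -6.08e-05 with voom. None of these was called. At an unadjusted p under 0.05, DESeq2 counted the same members as edgeR in each of the 8 comparisons (0 or 1), and voom counted 0 for MILK-IUGR against VEG-IUGR.

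Positive calls on C1QA were 5 of 5, 2 with all 36 libraries and 3 with the share of unassigned read pairs as a covariate. Positive calls on C3 were 4 of 5, and 2 with all 36 libraries. With all 36, slopes on C1QA turned for SERPING1 (-0.17, called negative) and C1QB (-0.048), and so did that of SERPING1 on C3 (-0.076). The median r of the 15 pairs was 0.61, 0.39 with all 36 libraries and 0.16 with the microglial marker level removed. It ran from 0.52 to 0.65 with each piglet left out. With all 36, r turned for C1QA and C1QB (-0.034), C1QA and SERPING1 (-0.61), C3 and SERPING1 (-0.20) and C3AR1 and SERPING1 (-0.44). With the marker level removed it turned for C1QA and C3 (-0.090) and for C3AR1 with C1QA (-0.13), C1QB (-0.22) and C1QC (-0.33). The cause was not tested.

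No paired analysis was possible because no label pairs piglets across groups. The association with C1S was not run, since that gene was not analysed here. Counts of C3AR1 limit its precision. Tissue RNA does not show which cells hold a transcript, and protein and complement activity were not measured.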
